A study of Sorghum bicolor with 12 samples.

Results

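The roots of Roma and M-81E, 2 lines of sweet sorghum, were compared without salt. Roma was described as salt-sensitive and M-81E as salt-tolerant. Both were seedlings kept from the three-leaf stage on in nutrient solution without added NaCl (control, CK). The comparison took the 6 CK libraries of the 12 root libraries in the series, 3 of Roma (Roma-CK) and 3 of M-81E (M-81E-CK), as named by line and treatment in the sample titles. The other 6 libraries, 3 of each line, came from plants held for 24 h at the final NaCl dose, which was reached in steps. They were used only to see whether a difference between the lines was also present there. The lines are whole genotypes, so a difference between them cannot be told apart by allele, growth rate or handling, and how many plants went into a library is not given in the sources used here. The libraries of a group were described as biological replicates, and p-values measure the spread between them. In whole roots, fewer cells of a type and less RNA per cell cannot be told apart. Levels were given as FPKM, fragments counted at a locus, scaled by transcript length and library size, for 34352 loci, of which 32931 were above 0 in at least 1 CK library and were tested.

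Roots take up water, nitrate, phosphate and metal ions, and they bar free entry of ions with suberin and lignin laid down in the walls of inner and outer cell layers. A sorghum root also makes the cyanogenic glucoside dhurrin and, in its root hairs, the quinone sorgoleone. The circadian clock of plants is commonly described with mutually repressing factors: morning-phased MYB factors of the LHY type and evening-phased response regulators of the TOC1 type. Whether these repress each other in the roots studied here was not tested. Salt tolerance in cereals is commonly discussed through ion transport, compatible solutes and hormone signalling, which is why the state of these genes before any salt is added bears on a comparison of a tolerant with a sensitive line.

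The 6 CK libraries fell into 2 groups by line. The first principal component of log2(FPKM + 1) took 54.2% of the variance and separated the lines. Pearson correlations over loci, given as a description, were 0.935 to 0.948 between libraries of 1 line and 0.859 to 0.882 between lines. The spacing of the lowest values put the relative depth of the libraries between 0.814 and 1.02 of that of M-81E-CK1, with the 3 Roma-CK libraries the shallower. The 56 loci of chlorophyll binding and photosystem genes summed to between 67.1 and 90.1 FPKM in each library of about 272193 to 301374 FPKM in all, while the 4 loci matched as root markers summed to between 15.7 and 24.0 FPKM. Sums over 56 and 4 loci are not a like comparison, so the label root was not tested by them. Loci named as ribosomal RNA, which the library preparation was meant to deplete, summed to 475, 1449 and 683 FPKM in Roma-CK and to 91.5, 145.8 and 121 FPKM in M-81E-CK, and 8 of the 18 such loci were called higher in Roma-CK. They made up at most 0.510% of the summed FPKM in every CK library, and their part in the other differences was not tested.

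Of the 32931 loci, 6709 (20.4%) passed limma at a Benjamini-Hochberg adjusted p under 0.05 with at least a 2-fold ratio of mean FPKM (called). The split was uneven, with 4325 loci (13.1%) higher in Roma-CK and 2384 (7.24%) higher in M-81E-CK. The limma test is on log2(FPKM + 1), a scale that understates differences of low loci, and differences below are Roma-CK minus M-81E-CK on it, ± SE. Calls higher in Roma-CK dropped to 2599 without M-81E-CK1 and to 2726 without M-81E-CK2. The linear model of Ballgown, which adds a sum over each library as a covariate and does not pool variances, called 142 loci. Under it, 90 of the 101 named loci that limma called lost their call and 1 changed sign. The Roma-CK libraries also had higher values at the median locus. The median log2 ratio of each library to the mean of all 6 was 0.27, 0.13 and 0.09 in Roma-CK and -0.21, -0.17 and -0.08 in M-81E-CK, a shift of 0.31 between the lines. After every library was rescaled to a common median ratio, 5854 loci (17.8%) were called, 2898 higher in Roma-CK (8.8%) and 2956 higher in M-81E-CK (8.98%). The share of calls that were higher in Roma-CK was thus 64.5% as deposited and 49.5% after rescaling. In all, 5259 loci were called in the same direction both ways, 2892 higher in Roma-CK and 2367 higher in M-81E-CK. The excess of loci higher in Roma therefore depended on the scaling, and groups of genes below are given with both counts where they were called. Their shares are to be read beside 13.1% and 7.24% of all loci as deposited, or 8.8% and 8.98% after rescaling. Loci named below kept their call after rescaling unless the text says otherwise.

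**Figure D1:**
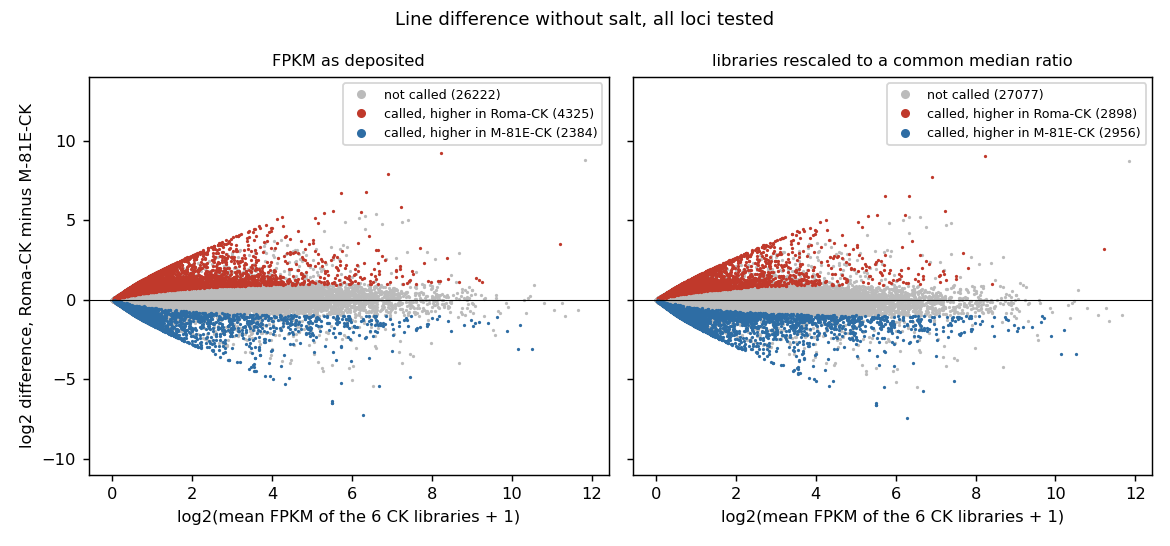
Each point is 1 of 32931 loci, with its mean level in the 6 CK libraries on the x axis, as log2(FPKM + 1), and the limma log2 difference of Roma-CK minus M-81E-CK on the y axis. The left panel uses FPKM as deposited, with 4325 loci called higher in Roma-CK (red) and 2384 in M-81E-CK (blue), and the right panel uses rescaled libraries, with 2898 and 2956.

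Most of the differences were also seen in plants under salt. Of the 6709 loci called in CK, 6263 (93.4%) had the same sign between Roma-salt and M-81E-salt, against 76.4% of all loci tested. A call in the same direction was made for 4041 of them, 60.2% of the CK calls and 54.8% of the 7368 salt calls, where 22.2% of all loci tested were called. Only 23 loci were called in opposite directions. The difference between the lines itself changed with salt, when the line-by-treatment interaction was tested with limma over all 12 libraries, at 359 of the CK-called loci (5.35%), where 1.81% of all loci passed. The CK-called loci were selected by the CK difference, which is itself part of the interaction. The 2 shares are therefore not a like comparison, and no excess is read from them. The count of 359 became 172 to 384 with 1 library left out, lowest at 177 without M-81E-CK1, 172 without M-81E-CK2, 187 without M-81E-salt1 and 200 without M-81E-salt2. The salt libraries are other samples of the same lines, so this shows how far the differences repeat and not what they stem from.

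**Figure D2:**
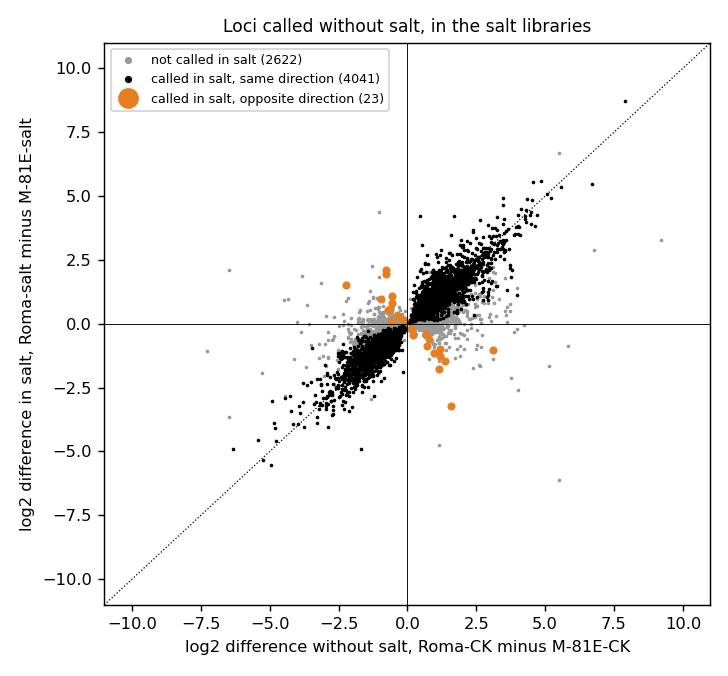
Each point is a locus called in CK, with its log2 difference of Roma minus M-81E without salt on the x axis and in salt on the y axis. The 4041 loci called in the same direction in salt (black) lie along the diagonal, and the 23 called in the opposite direction are in orange.

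Among loci above 0 in all 6 libraries, the largest differences in favour of Roma-CK were in a mixed set of genes, of which the Description column names hardly any beyond "hypothetical protein". SORBI_3003G261100, annotated with defense response to fungus and respiratory burst, had 70.5, 68.2 and 53.9 FPKM in Roma-CK and 0.893, 0.747 and 0.885 FPKM in M-81E-CK (log2 difference 5.14 ± 0.13, adjusted p = 9.27e-05). This difference was not called in salt, where the libraries of each line disagreed among themselves (0.869, 0.968 and 8.39 FPKM in Roma-salt and 31.3, 0.468 and 21.2 FPKM in M-81E-salt). SORBI_3004G007300, which has no function in the annotation, had 76.02, 68.4 and 59.9 FPKM in Roma-CK and 1.03, 1.12 and 2.202 FPKM in M-81E-CK (log2 difference 4.84 ± 0.21, adjusted p = 0.000322). THI1-1, an enzyme that makes the thiazole part of thiamine (vitamin B1), had 45.1, 32.8 and 30.97 FPKM in Roma-CK and 0.637, 0.622 and 0.231 FPKM in M-81E-CK (log2 difference 4.63 ± 0.19, adjusted p = 0.000296). Its second copy THI1-2 was much lower, with 0.711, 0.304 and 0.593 FPKM in Roma-CK and 0, 0 and 0 FPKM in M-81E-CK (listed at 0 in the latter), and it too was called (log2 difference 0.61 ± 0.11, adjusted p = 0.0116). THI1-2 was picked by its gene name after values had been seen. SORBI_3006G211400, a terpene synthase gene, had 29.4, 25.1 and 24.8 FPKM in Roma-CK and 0.645, 0.453 and 0.785 FPKM in M-81E-CK (log2 difference 4.07 ± 0.12, adjusted p = 0.000141). Its GO terms name ent-kaurene synthase activity, of gibberellin synthesis, but its KEGG entries are terpenoid backbone and sesquiterpenoid and triterpenoid synthesis. The annotation therefore does not settle which terpene it makes. SORBI_3008G070350, annotated as a ligase of purine synthesis, had 99.6, 145 and 236 FPKM in Roma-CK and 11.7, 6.58 and 8.13 FPKM in M-81E-CK (log2 difference 3.98 ± 0.36, adjusted p = 0.0015). SORBI_3008G022100, annotated as a nucleoside diphosphatase, had 23.04, 18.2 and 16.5 FPKM in Roma-CK and 0.433, 0.201 and 0.261 FPKM in M-81E-CK (log2 difference 3.95 ± 0.16, adjusted p = 0.00026). The largest difference in this set was at a ribosomal RNA locus, with 102, 716 and 75.5 FPKM in Roma-CK and 2.9, 1.45 and 2.11 FPKM in M-81E-CK (log2 difference 5.85 ± 0.87, adjusted p = 0.00728).

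In favour of M-81E-CK, SORBI_3008G149900 and SORBI_3008G065800, neither with a function in the annotation, led with 2.46, 3.09 and 5.85 FPKM in Roma-CK and 224, 220.5 and 155 FPKM in M-81E-CK (log2 difference -5.43 ± 0.297, adjusted p = 0.000564) and with 2.1, 0.758 and 2.56 FPKM in Roma-CK and 100.2, 99.1 and 105 FPKM in M-81E-CK (log2 difference -5.25 ± 0.27, adjusted p = 0.000502). SORBI_3001G086000, annotated with cellulose microfibril organization at the cell surface, was near 0 in Roma, at 0.0176, 0.0825 and 0.0348 FPKM in Roma-CK and 22.5, 27.3 and 37.4 FPKM in M-81E-CK (log2 difference -4.82 ± 0.19, adjusted p = 0.00028). A nearby gene of the same annotation, SORBI_3001G086200, differed the other way, with 281, 232 and 135 FPKM in Roma-CK and 51.8, 55.4 and 60.3 FPKM in M-81E-CK (log2 difference 1.87 ± 0.28, adjusted p = 0.00757). SORBI_3004G013200, an ionotropic glutamate receptor gene, whose relatives carry calcium into plant cells, had 0.0708, 0.148 and 0.0906 FPKM in Roma-CK and 18.2, 10.8 and 19.3 FPKM in M-81E-CK (log2 difference -3.91 ± 0.23, adjusted p = 0.000599). Each of these 4 genes that were lower in Roma was called in the same direction in salt. A pair of further members of this set was less even among replicates. SORBI_3005G215900, with no function given, had 3.12, 3.31 and 22.7 FPKM in Roma-CK and 144, 129 and 67.4 FPKM in M-81E-CK (log2 difference -3.86 ± 0.76, adjusted p = 0.0173), and its call was lost without M-81E-CK1 (adjusted p = 0.0638), M-81E-CK2 (at 0.0623) or Roma-CK2 (at 0.0524). SORBI_3004G283300, an ethylene-related transcription factor gene, had 2.97, 30.1 and 0.711 FPKM in Roma-CK and 83.7, 92.8 and 72.7 FPKM in M-81E-CK (log2 difference -3.81 ± 1.06, adjusted p = 0.0473), and lost its call without M-81E-CK1 (adjusted p = 0.125), M-81E-CK2 (at 0.127), M-81E-CK3 (at 0.105), Roma-CK1 (at 0.12) or Roma-CK3 (at 0.0809).

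A pair of neighbouring loci, both annotated as protein kinases of cell surface receptor signalling, differed in opposite directions. SORBI_3005G069700 with SORBI_3005G069800 had 13.9, 9.97 and 8.996 FPKM in Roma-CK and 316, 311 and 382 FPKM in M-81E-CK (log2 difference -4.83 ± 0.18, adjusted p = 0.000229). SORBI_3005G069900 with SORBI_3005G070000, the next locus in gene number, had 32.8, 32.2 and 24.5 FPKM in Roma-CK and 0.308, 0.341 and 0.333 FPKM in M-81E-CK (log2 difference 4.53 ± 0.14, adjusted p = 0.000139). Both differences were called again in salt. The 2 loci carry the same annotation, and whether reads were shared between near-identical copies in the authors' counting was not tested.

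Some loci were listed at exactly 0 in a whole line. Of the loci called higher in Roma-CK, 594 were listed at 0 in all 3 M-81E-CK libraries, and 444 of these were at 0 in all 3 M-81E-salt libraries too. Of those higher in M-81E-CK, 729 were at 0 in all of Roma-CK and 502 also in all of Roma-salt. A listed 0 is not proof of no transcript. At 109 of 4657 loci with at least 10 FPKM in 2 or more Roma-CK libraries, the third was listed at 0, and the same held for 101 of 4069 in M-81E-CK. SORBI_3004G018400, annotated as a peptidyl-prolyl isomerase, shows this: it was at 604, 700.3 and 485 FPKM in Roma-CK and 0, 0 and 0 FPKM in M-81E-CK, yet in salt it was at 577, 0 and 629 FPKM in Roma-salt and 0, 415 and 0 FPKM in M-81E-salt. Likewise SORBI_3004G233200, an ethylene-related transcription factor gene, and SORBI_3001G064900, a SNARE gene of vesicle fusion, were listed at 0 in Roma-CK and at 158, 164 and 137 FPKM and 95.02, 92.5 and 80.4 FPKM in M-81E-CK, but had values in some Roma-salt libraries.

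Other such loci kept the pattern in all 12 libraries or nearly so. SORBI_3001G482600, annotated as a transcription corepressor that regulates jasmonate signalling, had 213, 258 and 240.1 FPKM in Roma-CK and 0, 0 and 0 FPKM in M-81E-CK (log2 difference 7.89 ± 0.096, adjusted p = 1.72e-05), and in salt it was at 387, 439 and 443 FPKM in Roma-salt and 0, 0 and 0 FPKM in M-81E-salt. SORBI_3004G070900, a transcription factor gene annotated with responses to ethylene and jasmonate, was at 29.2, 39.99 and 39.1 FPKM in Roma-CK and 0, 0 and 0 FPKM in M-81E-CK (log2 difference 5.2 ± 0.14, adjusted p = 0.000121) and was again listed at 0 in M-81E-salt. SORBI_3003G200501, annotated with nucleosome assembly, had 94.3, 112 and 107 FPKM in Roma-CK and 0, 0 and 0 FPKM in M-81E-CK (log2 difference 6.72 ± 0.09, adjusted p = 1.72e-05), with 1 of the 3 M-81E-salt libraries above 0. In the other direction, the peroxidase gene SORBI_3005G051500 was at 0, 0 and 0 FPKM in Roma-CK and 97.6, 127 and 41.6 FPKM in M-81E-CK (log2 difference -6.35 ± 0.41, adjusted p = 0.000659), with 1 of the 3 Roma-salt libraries above 0. The fitted differences of loci at 0 depend on the added 1 FPKM and are no measure of fold.

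Among the most abundant called loci, an HSP70-type chaperone gene, SORBI_3001G420100, was at 269.6, 217 and 224 FPKM in Roma-CK and 2213, 2124 and 1765 FPKM in M-81E-CK (log2 difference -3.097 ± 0.201, adjusted p = 0.000655), and it was called again in salt (296, 344 and 312 FPKM in Roma-salt and 1889, 1819.6 and 2254 FPKM in M-81E-salt). SORBI_3004G198701 and SORBI_3004G198800, neighbours with no function given, were at 108, 507 and 456 FPKM in Roma-CK and 2670.1, 2488 and 2485 FPKM in M-81E-CK (log2 difference -3.12 ± 0.63, adjusted p = 0.0188) and at 462, 537 and 825 FPKM in Roma-CK and 1963, 1624 and 1713 FPKM in M-81E-CK (log2 difference -1.58 ± 0.29, adjusted p = 0.0146). The call of the first was lost without M-81E-CK1 (adjusted p = 0.0649), M-81E-CK2 (at 0.062) or M-81E-CK3 (at 0.0536), and that of the second without M-81E-CK1 (adjusted p = 0.0571). Both were called in the same direction in salt. On the Roma side stood an unannotated locus, MSTRG.2105, at 2130.1, 8714 and 2489.7 FPKM in Roma-CK and 375, 234 and 334 FPKM in M-81E-CK (log2 difference 3.54 ± 0.602, adjusted p = 0.0111), whose highest library, Roma-CK2, was also the highest in ribosomal RNA, the part of which was not tested. SORBI_3008G185900, an RNA-binding protein gene annotated with mRNA export and circadian rhythm, was at 765, 775 and 882 FPKM in Roma-CK and 288, 414 and 348 FPKM in M-81E-CK (log2 difference 1.22 ± 0.201, adjusted p = 0.0101), and after rescaling it was at 0.903 (adjusted p = 0.0341), no longer called. SORBI_3003G279300, a phosphatase gene, was at 744, 877 and 871 FPKM in Roma-CK and 366, 338 and 475 FPKM in M-81E-CK (log2 difference 1.09 ± 0.21, adjusted p = 0.0151). It lost its call after rescaling, at 0.78 (adjusted p = 0.0546), and without M-81E-CK1 (adjusted p = 0.0653) or M-81E-CK2 (at 0.0652).

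Genes of the circadian clock differed in both directions. In the list of circadian rhythm genes, 8 of 48 loci tested were called higher in Roma-CK (16.7%) and 8 higher in M-81E-CK (16.7%), and after rescaling 6 and 9. Among all loci the shares were 13.1% and 7.24% as deposited. SORBI_3007G047400, which the table assigns to the KEGG entry of LHY, was at 1.001, 0.879 and 1.104 FPKM in Roma-CK and 32.05, 34.8 and 36.9 FPKM in M-81E-CK (log2 difference -4.16 ± 0.096, adjusted p = 7.5e-05), a 34.8-fold lower mean in Roma. SORBI_3004G279300 and SORBI_3003G064200, assigned to the same entry, and SORBI_3010G275700, a transcription factor gene with the circadian rhythm term, were lower in Roma as well. SORBI_3010G275700 was at 0.315, 0.256 and 0.244 FPKM in Roma-CK and 4.65, 4.48 and 4.48 FPKM in M-81E-CK (log2 difference -2.12 ± 0.11, adjusted p = 0.000481), SORBI_3004G279300 at 0.232, 0.247 and 0.415 FPKM in Roma-CK and 4.16, 3.304 and 4.07 FPKM in M-81E-CK (log2 difference -1.898 ± 0.14, adjusted p = 0.000832) and SORBI_3003G064200 at 12.6, 11.7 and 7.66 FPKM in Roma-CK and 46.5, 46.9 and 49.4 FPKM in M-81E-CK (log2 difference -2.08 ± 0.19, adjusted p = 0.00142). SORBI_3001G411400, a pseudo-response regulator gene of the PRR7 entry, which follows the LHY type in the daily sequence, was at 5.17, 5.499 and 7.26 FPKM in Roma-CK and 41.6, 44.2 and 46.9 FPKM in M-81E-CK (log2 difference -2.71 ± 0.13, adjusted p = 0.000463). In the other direction, 3 loci are named here. SORBI_3004G216700, of the TOC1 entry, was at 22.9, 20.9 and 21.1 FPKM in Roma-CK and 3.47, 4.34 and 4.83 FPKM in M-81E-CK (log2 difference 2.13 ± 0.12, adjusted p = 0.000585). SORBI_3003G443601 and SORBI_3002G247200, a transcription factor gene and a dioxygenase gene that both carry the circadian rhythm term, were at 4.29, 6.89 and 6.93 FPKM in Roma-CK and 0, 0.4898 and 0.226 FPKM in M-81E-CK (log2 difference 2.501 ± 0.24, adjusted p = 0.00173) and at 4.598, 3.28 and 3.47 FPKM in Roma-CK and 0.371, 0.443 and 0.395 FPKM in M-81E-CK (log2 difference 1.76 ± 0.15, adjusted p = 0.00116). SORBI_3003G040900, of the GIGANTEA entry, was at 34.8, 32.5 and 40.9 FPKM in Roma-CK and 36.6, 39.2 and 39.1 FPKM in M-81E-CK and did not pass (log2 difference -0.09 ± 0.11, adjusted p = 0.577), while in salt it was called lower in Roma. Of 10 loci picked by gene number as clock genes, 1 was called higher in Roma-CK and 5 higher in M-81E-CK. The other members not called were SORBI_3003G191700, at 6.48, 5.49 and 2.68 FPKM in Roma-CK and 2.09, 1.77 and 2.11 FPKM in M-81E-CK (log2 difference 0.92 ± 0.28, adjusted p = 0.0634), SORBI_3005G044400, at 8.53, 8.91 and 10.3 FPKM in Roma-CK and 7.54, 7.54 and 8.09 FPKM in M-81E-CK (log2 difference 0.23 ± 0.098, adjusted p = 0.145), and SORBI_3009G257300, at 7.91, 18.4 and 21.2 FPKM in Roma-CK and 18.3, 18.3 and 20.6 FPKM in M-81E-CK (log2 difference -0.35 ± 0.36, adjusted p = 0.496). The 8 called loci with values in this paragraph were called in the same direction in salt and kept their call with any 1 CK library left out. In none of the 8 did the Roma-CK and M-81E-CK libraries overlap, which a call on these same libraries nearly entails and which is no further support. The hour of harvest is not given in the sources used here, and its part in these values was not tested. The 10 loci and, among the 8 of the circadian list called higher in Roma-CK, the 3 named here were chosen after values had been seen.

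**Figure D3:**
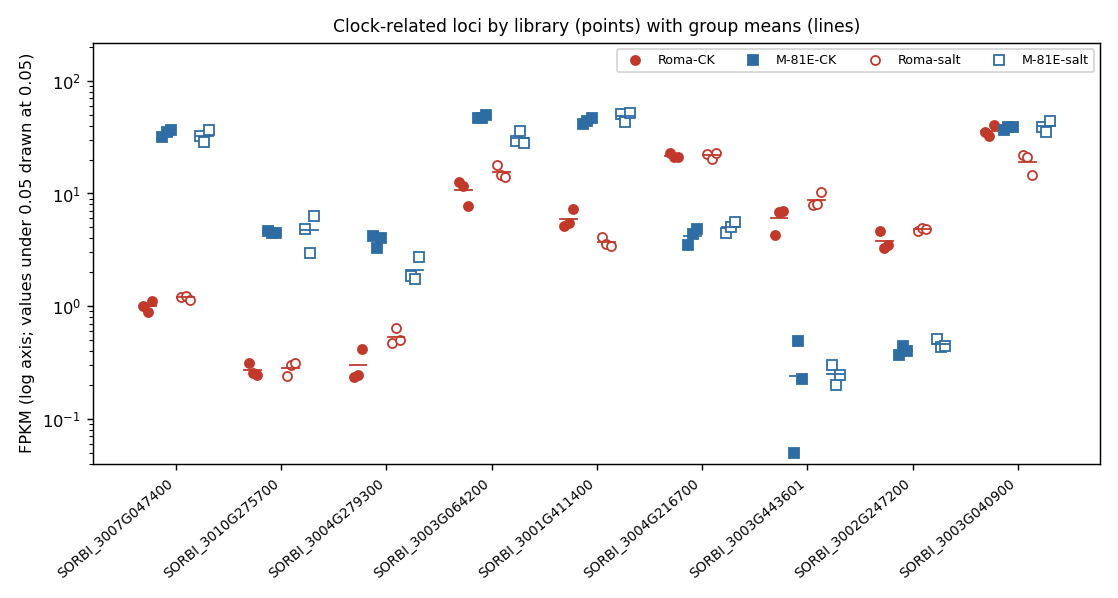
FPKM on a log axis for 9 clock-related loci, with 1 point a library, filled for CK and open for salt, red for Roma and blue for M-81E, and lines at group means. The 5 loci on the left are lower in Roma in CK and in salt, the next 3 are higher in Roma, and SORBI_3003G040900 is level between the lines in CK.

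Genes of the phosphate starvation response were called higher in Roma-CK more often than loci at large. When phosphate is short, plants swap phospholipids for sulfolipids and galactolipids and release phosphate with phosphatases and ribonucleases. In this list, 16 of 40 loci tested were called higher in Roma-CK (40%) and 1 higher in M-81E-CK (2.5%), and after rescaling 11 and 1. The median log2 difference was 0.48 as deposited and 0.26 after rescaling, where all loci tested had 0.11 and 0.02. SORBI_3003G076900, a glycolipid glycosyltransferase gene, was at 65.4, 56.8 and 62.5 FPKM in Roma-CK and 6.22, 4.64 and 13.1 FPKM in M-81E-CK (log2 difference 2.91 ± 0.34, adjusted p = 0.00341). SORBI_3009G123300, the synthase of the sulfolipid head group UDP-sulfoquinovose, was at 13.9, 11.6 and 11.2 FPKM in Roma-CK and 1.11, 1.45 and 1.85 FPKM in M-81E-CK (log2 difference 2.43 ± 0.15, adjusted p = 0.000627). SORBI_3007G211900, a monogalactosyldiacylglycerol synthase gene, was at 11.3, 11.2 and 10.3 FPKM in Roma-CK and 1.37, 1.32 and 1.27 FPKM in M-81E-CK (log2 difference 2.36 ± 0.09, adjusted p = 0.000229). SORBI_3001G054000, annotated with phosphate transport and traffic from the endoplasmic reticulum, was at 3.86, 3.19 and 3.15 FPKM in Roma-CK and 0.0347, 0.0888 and 0.2596 FPKM in M-81E-CK (log2 difference 1.97 ± 0.14, adjusted p = 0.000831). In each of these 4 genes the lowest Roma library was above the highest M-81E library in CK, which the call on those libraries nearly entails. Each of the 4 was called again in salt. The most abundant member, the ribonuclease gene SORBI_3007G137700, was at 142, 166 and 401 FPKM in Roma-CK and 54.3, 56.8 and 54.8 FPKM in M-81E-CK (log2 difference 1.92 ± 0.4, adjusted p = 0.0206), with its call lost without M-81E-CK1 (adjusted p = 0.0695), M-81E-CK2 (at 0.0659) or M-81E-CK3 (at 0.0597). The single member higher in M-81E-CK was SORBI_3001G472800, which makes inositol phosphate, at 21.04, 17.8 and 16.02 FPKM in Roma-CK and 39.8, 36.8 and 35.8 FPKM in M-81E-CK (log2 difference -1.002 ± 0.12, adjusted p = 0.00359). Its call was lost without M-81E-CK1 (log2 ratio of means -0.99) or Roma-CK3 (log2 ratio of means -0.95).

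Nitrate uptake and assimilation genes leaned the same way but at a share nearer to that of all loci. Here 13 of 84 loci tested were called higher in Roma-CK (15.5%) and 1 higher in M-81E-CK (1.19%), and after rescaling 10 and 2, beside 13.1% and 7.24% of all loci as deposited. SORBI_3004G312500, a gene of nitrate reductase, which turns nitrate into nitrite, was at 36.5, 31.7 and 76.2 FPKM in Roma-CK and 2.99, 2.197 and 2.29 FPKM in M-81E-CK (log2 difference 3.71 ± 0.34, adjusted p = 0.00157). The next step, nitrite reductase, was also higher: SORBI_3004G309300 was at 157, 207 and 356 FPKM in Roma-CK and 38.4, 62.6 and 52.6 FPKM in M-81E-CK (log2 difference 2.15 ± 0.35, adjusted p = 0.00947). SORBI_3006G130501, a transporter gene with the nitrate assimilation term, was at 4.73, 2.89 and 4.94 FPKM in Roma-CK and 0.313, 0.537 and 0.278 FPKM in M-81E-CK (log2 difference 1.89 ± 0.21, adjusted p = 0.00272). SORBI_3004G009500, a nitrate transporter gene, was at 22.9, 25.7 and 92.96 FPKM in Roma-CK and 7.11, 7.57 and 2.97 FPKM in M-81E-CK (log2 difference 2.59 ± 0.62, adjusted p = 0.0306), but was not called after rescaling, at 2.303 (adjusted p = 0.0583), nor without M-81E-CK1 (adjusted p = 0.0757), M-81E-CK2 (at 0.0703), M-81E-CK3 (at 0.0826) or Roma-CK2 (at 0.0539). In all 4 genes the Roma-CK libraries lay above the M-81E-CK libraries, as the call nearly entails, and Roma-CK3 was the highest. The 1 member higher in M-81E-CK was SORBI_3006G124000, a transcription cofactor gene annotated with calmodulin binding, at 24.2, 33.9 and 35.6 FPKM in Roma-CK and 107, 87.4 and 107 FPKM in M-81E-CK (log2 difference -1.67 ± 0.18, adjusted p = 0.00263).

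In the list of suberin and cutin genes, 10 of 63 loci tested were called higher in Roma-CK (15.9%) and 0 higher in M-81E-CK (0%), and after rescaling 7 and 0. The share higher in Roma-CK was close to the 13.1% of all loci. The list's median log2 difference of 0.02 was below that of all loci, so the calls rested on a minority of members. SORBI_3003G360700, an acyltransferase gene that joins fatty acids to glycerol, was at 24.6, 27.2 and 27.1 FPKM in Roma-CK and 1.11, 0.651 and 1.62 FPKM in M-81E-CK (log2 difference 3.71 ± 0.18, adjusted p = 0.000448). Its neighbour SORBI_3003G360600, a fatty acid hydroxylase gene of suberin synthesis, was at 15.98, 16.9 and 15.5 FPKM in Roma-CK and 1.79, 1.403 and 1.25 FPKM in M-81E-CK (log2 difference 2.79 ± 0.11, adjusted p = 0.00028). SORBI_3002G134100, a fatty acyl reductase gene, was at 10.6, 9.69 and 8.65 FPKM in Roma-CK and 2.47, 2.496 and 1.17 FPKM in M-81E-CK (log2 difference 1.84 ± 0.22, adjusted p = 0.00351). SORBI_3008G076250, with the wax and cutin synthesis terms, was at 1.51, 1.395 and 1.02 FPKM in Roma-CK and 0.188, 0.227 and 0.228 FPKM in M-81E-CK (log2 difference 0.92 ± 0.11, adjusted p = 0.00411). The most abundant member, the acyltransferase gene SORBI_3009G162000, was at 73.5, 72.9 and 111 FPKM in Roma-CK and 108, 99.8 and 85.5 FPKM in M-81E-CK and did not pass (log2 difference -0.204 ± 0.204, adjusted p = 0.495).

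In the hypoxia list, 7 of 36 loci tested were called higher in Roma-CK (19.4%) and 2 higher in M-81E-CK (5.56%), beside 13.1% and 7.24% of all loci. After rescaling 3 and 3 were called (8.33% each), beside 8.8% and 8.98% of all loci, so the list was then near loci at large. Its called members included 2 genes of alcohol dehydrogenase, which regenerates NAD during fermentation in roots short of oxygen. SORBI_3001G097600 was at 117, 163 and 221 FPKM in Roma-CK and 37.5, 21.1 and 38.4 FPKM in M-81E-CK (log2 difference 2.33 ± 0.33, adjusted p = 0.00608) and SORBI_3005G103500 at 202, 280.1 and 373 FPKM in Roma-CK and 89.2, 63.4 and 80.6 FPKM in M-81E-CK (log2 difference 1.83 ± 0.26, adjusted p = 0.00645). SORBI_3010G012800, an acyl-CoA binding protein gene, was at 123, 110.2 and 184 FPKM in Roma-CK and 59.4, 41.2 and 46.2 FPKM in M-81E-CK (log2 difference 1.47 ± 0.24, adjusted p = 0.00987). Pyruvate decarboxylase, the step before alcohol dehydrogenase, was at 501, 779 and 1150.2 FPKM in Roma-CK and 323, 225 and 341 FPKM in M-81E-CK for SORBI_3001G405500 (log2 difference 1.39 ± 0.36, adjusted p = 0.0393), but was not called after rescaling, at 1.08 (adjusted p = 0.114), nor without M-81E-CK1 (adjusted p = 0.0968), M-81E-CK2 (at 0.122), M-81E-CK3 (at 0.0726), Roma-CK2 (at 0.0964) or Roma-CK3 (at 0.0622). The 2 members higher in M-81E-CK were SORBI_3010G240400, with no known activity, at 0.636, 0.342 and 0.682 FPKM in Roma-CK and 6.96, 10.7 and 5.04 FPKM in M-81E-CK (log2 difference -2.42 ± 0.27, adjusted p = 0.00279), and the transcription factor gene SORBI_3009G142200, at 8.56, 9.998 and 13.4 FPKM in Roma-CK and 43.3, 51.6 and 62.7 FPKM in M-81E-CK (log2 difference -2.204 ± 0.21, adjusted p = 0.00164). The 3 Roma libraries lay above the 3 M-81E libraries for both dehydrogenases in CK, as their calls nearly entail. In salt neither was called, with 55.4, 50.6 and 28.4 FPKM in Roma-salt and 47.7, 35.5 and 28.8 FPKM in M-81E-salt for SORBI_3001G097600.

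**Figure D4:**
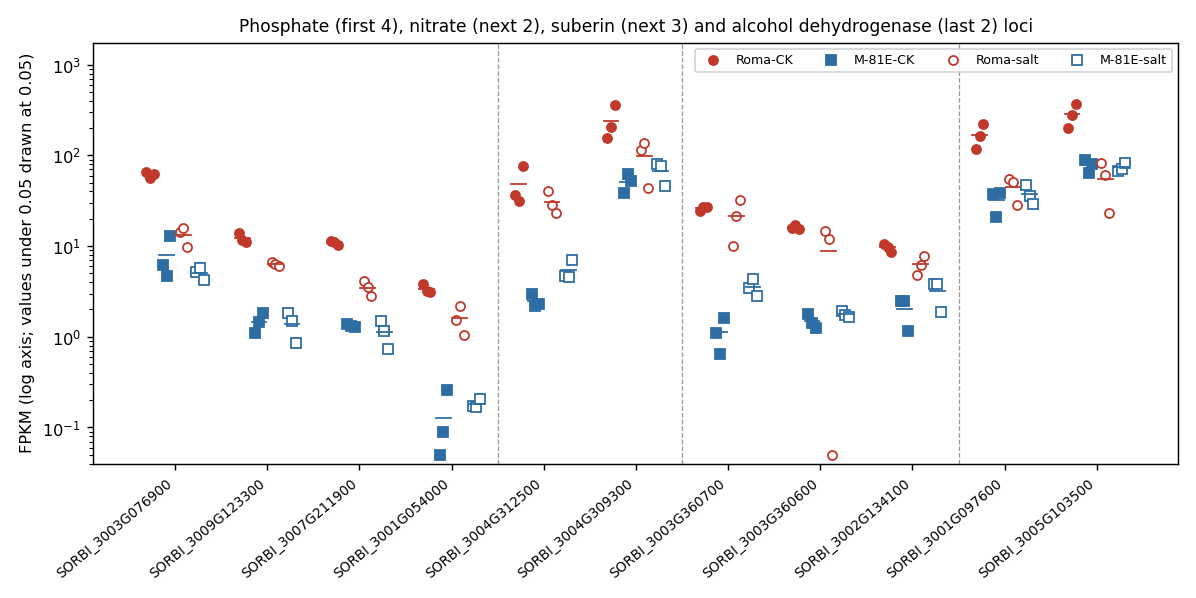
FPKM on a log axis for 4 phosphate, 2 nitrate, 3 suberin and 2 alcohol dehydrogenase loci, with 1 point a library, filled for CK and open for salt, red for Roma and blue for M-81E, and lines at group means. All 11 loci were picked among those called higher in Roma-CK, and in CK their Roma points lie above their M-81E points. In salt the dehydrogenases of the lines overlap or nearly meet, and the Roma-salt point of SORBI_3003G360600 at the lower edge was listed at 0.

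Cell wall genes differed in both directions. In the list of wall loosening and xyloglucan genes, 38 of 184 loci tested were called higher in Roma-CK (20.7%) and 7 higher in M-81E-CK (3.804%), and after rescaling 24 and 11. Among all loci the shares were 13.1% and 7.24% as deposited. The median log2 difference of the list was 0.40 as deposited and 0.18 after rescaling. The members furthest apart were not loosening enzymes but secreted peroxidases, which cross-link wall phenolics. SORBI_3009G032800 was at 13.7, 13.4 and 22.8 FPKM in Roma-CK and 0.782, 1.498 and 0.743 FPKM in M-81E-CK (log2 difference 3.12 ± 0.26, adjusted p = 0.00113) and SORBI_3003G050300 at 37.3, 78.2 and 29.7 FPKM in Roma-CK and 7.47, 9.18 and 9.75 FPKM in M-81E-CK (log2 difference 2.22 ± 0.37, adjusted p = 0.0101). In the other direction were SORBI_3001G314000, at 1.71, 0.581 and 0.589 FPKM in Roma-CK and 9.74, 10.04 and 10.5 FPKM in M-81E-CK (log2 difference -2.55 ± 0.23, adjusted p = 0.00157), and the abundant SORBI_3009G055100, at 249, 295 and 352 FPKM in Roma-CK and 773, 713 and 628 FPKM in M-81E-CK (log2 difference -1.24 ± 0.197, adjusted p = 0.0087). In lignin synthesis, 34 of 173 loci tested were called higher in Roma-CK (19.7%) and 17 higher in M-81E-CK (9.83%), both above the shares of all loci, and after rescaling 24 and 24. The laccase genes SORBI_3001G422300 and SORBI_3003G352700, whose enzymes oxidize lignin units in the wall, were at 11.5, 12.8 and 8.896 FPKM in Roma-CK and 0.635, 0.314 and 0.505 FPKM in M-81E-CK (log2 difference 3.01 ± 0.17, adjusted p = 0.000567) and at 87.1, 82.4 and 72.8 FPKM in Roma-CK and 10.4, 10.8 and 10.8 FPKM in M-81E-CK (log2 difference 2.805 ± 0.09, adjusted p = 0.000176). A pair of adjacent cinnamyl alcohol dehydrogenase genes, which make those units, went the other way: SORBI_3010G072100 was at 0.189, 0.171 and 0.204 FPKM in Roma-CK and 9.33, 10.9 and 5.095 FPKM in M-81E-CK (log2 difference -2.94 ± 0.27, adjusted p = 0.00152) and SORBI_3010G072000 at 2.49, 2.32 and 3.15 FPKM in Roma-CK and 13.9, 14.8 and 10.6 FPKM in M-81E-CK (log2 difference -1.94 ± 0.16, adjusted p = 0.00113). The most abundant member, the phenylalanine ammonia-lyase gene SORBI_3004G220400 at the entry of the pathway, was at 884, 875 and 841 FPKM in Roma-CK and 962, 1012 and 1015 FPKM in M-81E-CK and did not pass (log2 difference -0.201 ± 0.19, adjusted p = 0.463). Of 45 cellulose genes, 7 were called higher in Roma-CK (15.6%), near the share of all loci, and 0 in M-81E-CK (3 and 0 after rescaling). Among them was SORBI_3001G099100, an endoglucanase gene, at 91.3, 81.2 and 81.5 FPKM in Roma-CK and 30.8, 30.1 and 33.8 FPKM in M-81E-CK (log2 difference 1.395 ± 0.096, adjusted p = 0.000762).

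Resistance genes of the NBS-LRR class, intracellular receptors for pathogen effectors, were called higher in Roma-CK more often than loci at large in either scaling: 46 of 157 loci tested were called higher in Roma-CK (29.3%) and 8 higher in M-81E-CK (5.096%), and after rescaling 31 and 13. SORBI_3006G001900 was at 5.01, 4.95 and 4.49 FPKM in Roma-CK and 0.0482, 0.05601 and 0.0678 FPKM in M-81E-CK (log2 difference 2.46 ± 0.11, adjusted p = 0.000372) and SORBI_3008G166400 at 11.7, 10.6 and 13.1 FPKM in Roma-CK and 0.775, 0.927 and 0.439 FPKM in M-81E-CK (log2 difference 2.904 ± 0.15, adjusted p = 0.000508). SORBI_3005G154400, read with its neighbour SORBI_3005G154300, was at 0.435, 0.203 and 0.378 FPKM in Roma-CK and 3.72, 3.52 and 4.43 FPKM in M-81E-CK (log2 difference -1.87 ± 0.14, adjusted p = 0.000906) and SORBI_3005G072000 at 0.733, 0.283 and 0.634 FPKM in Roma-CK and 2.72, 2.85 and 3.34 FPKM in M-81E-CK (log2 difference -1.37 ± 0.16, adjusted p = 0.00365). Of the members called in CK, 32 were called higher in Roma and 5 higher in M-81E in salt as well. This family has many near-identical copies, and whether the authors' counting split reads among them was not tested. The broader defense response list was called at 14.9% and 6.14% (85 and 35 of 570 loci, and 58 and 52 after rescaling), close to all loci.

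In the dhurrin pathway, where CYP79A1 turns tyrosine into an oxime, a second P450 makes the cyanohydrin and UGT85B1 adds the glucose, the steps did not differ in the same direction. CYP79A1 was at 128, 229.8 and 279 FPKM in Roma-CK and 44.7, 77.1 and 53.2 FPKM in M-81E-CK (log2 difference 1.81 ± 0.35, adjusted p = 0.0169), higher in every Roma library, and its call was lost without M-81E-CK1 (adjusted p = 0.0605), M-81E-CK3 (at 0.0535) or Roma-CK2 (at 0.0545). The gene that the table gives the enzyme number of the second step, SORBI_3001G012200, was listed at 0 in all 3 Roma-CK libraries and at 78.5, 86.2 and 101 FPKM in M-81E-CK (log2 difference -6.48 ± 0.11, adjusted p = 2.68e-05). In salt this locus was at 0, 0 and 0 FPKM in Roma-salt and 45.2, 0 and 40.8 FPKM in M-81E-salt, so it was at 0 in 6 of 6 Roma libraries and in 1 of 6 M-81E libraries. A second assembled locus carrying the same gene name was at 0.466, 2.23 and 0.213 FPKM in Roma-CK and 0.123, 0 and 0.451 FPKM in M-81E-CK and did not pass (log2 difference 0.61 ± 0.39, adjusted p = 0.312), and with rows of the same gene name summed the call held. UGT85B1 was at 32.2, 58.2 and 64.1 FPKM in Roma-CK and 64.1, 67.97 and 59.1 FPKM in M-81E-CK and did not pass (log2 difference -0.36 ± 0.27, adjusted p = 0.383). For sorgoleone, 4 loci carried names of its pathway. DES2 and a DES3 locus, desaturase genes for its fatty acid tail, were at 2.302, 2.55 and 3.47 FPKM in Roma-CK and 0.334, 0.765 and 0.282 FPKM in M-81E-CK (log2 difference 1.37 ± 0.196, adjusted p = 0.00628) and at 1.56, 2.099 and 4.03 FPKM in Roma-CK and 0.211, 0.887 and 0.4904 FPKM in M-81E-CK (log2 difference 1.18 ± 0.31, adjusted p = 0.04). The DES3 call was lost after rescaling, at 1.03 (adjusted p = 0.0777), and without M-81E-CK1 (adjusted p = 0.12), M-81E-CK2 (at 0.0649), M-81E-CK3 (at 0.0976), Roma-CK2 (at 0.0821) or Roma-CK3 (at 0.0545). The other DES3 locus, at 0.123, 0.478 and 0.721 FPKM in Roma-CK and 0.816, 1.22 and 1.65 FPKM in M-81E-CK, and OMT3, a methyltransferase gene, at 2.57, 20.1 and 3.67 FPKM in Roma-CK and 0.225, 4.61 and 0.4204 FPKM in M-81E-CK, did not pass. These pathway members were picked by gene name after values had been seen, since the Description and GO columns matched none.

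In sodium and potassium transport, 11 of 58 loci tested were called higher in Roma-CK (18.97%) and 4 higher in M-81E-CK (6.897%), and after rescaling 5 and 4. All loci stood at 13.1% and 7.24% as deposited and at 8.8% and 8.98% after rescaling. The vacuolar cation exchanger genes SORBI_3003G184800 and SORBI_3003G184765, adjacent in gene number, were at 14.1, 17.9 and 17.9 FPKM in Roma-CK and 4.25, 6.31 and 4.92 FPKM in M-81E-CK (log2 difference 1.52 ± 0.16, adjusted p = 0.00263) and at 5.21, 8.37 and 6.64 FPKM in Roma-CK and 1.396, 1.98 and 2.34 FPKM in M-81E-CK (log2 difference 1.41 ± 0.21, adjusted p = 0.00681). Both exchangers carry terms of calcium and proton exchange and calcium homeostasis beside the term of sodium transport. The potassium transporter gene SORBI_3001G379900 was at 4.23, 4.08 and 4.14 FPKM in Roma-CK and 0.967, 1.15 and 1.22 FPKM in M-81E-CK (log2 difference 1.29 ± 0.11, adjusted p = 0.00113). All 3 were called in the same direction in salt. SORBI_3001G424400, a protein phosphatase gene that restrains abscisic acid signalling and also carries a potassium channel term, was at 5.52, 5.94 and 5.17 FPKM in Roma-CK and 17.7, 15.8 and 16.98 FPKM in M-81E-CK (log2 difference -1.45 ± 0.09, adjusted p = 0.000627), while in salt the lines met, at 11.1, 12.6 and 14.7 FPKM in Roma-salt and 11.3, 13.6 and 13.2 FPKM in M-81E-salt. The most abundant plasma membrane proton pump gene, SORBI_3006G247100, which powers such transport, was at 506, 490.1 and 402 FPKM in Roma-CK and 437, 444 and 403 FPKM in M-81E-CK and did not pass (log2 difference 0.12 ± 0.17, adjusted p = 0.63). SORBI_3004G345500, the most abundant potassium channel gene, was at 56.3, 65.3 and 55.8 FPKM in Roma-CK and 32.5, 44.3 and 37.5 FPKM in M-81E-CK, under the 2-fold limit (log2 difference 0.63 ± 0.14, adjusted p = 0.026).

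Aquaporins, the water channels of root cells, were split: 6 of 39 loci tested were called higher in Roma-CK (15.4%) and 5 higher in M-81E-CK (12.8%), and after rescaling 4 and 7. Among all loci the shares were 13.1% and 7.24% as deposited. SORBI_3004G238100 was at 79.01, 64.04 and 80.5 FPKM in Roma-CK and 14.1, 14.3 and 8.58 FPKM in M-81E-CK (log2 difference 2.53 ± 0.22, adjusted p = 0.00128), SORBI_3009G085900 at 11.7, 15.1 and 12.6 FPKM in Roma-CK and 3.595, 4.095 and 3.67 FPKM in M-81E-CK (log2 difference 1.56 ± 0.12, adjusted p = 0.000954) and SORBI_3007G039600 at 8.49, 10.2 and 44.5 FPKM in Roma-CK and 0.298, 0.116 and 0.422 FPKM in M-81E-CK (log2 difference 3.73 ± 0.62, adjusted p = 0.0101), the last with Roma-CK3 far above the other Roma libraries. SORBI_3010G087900 was at 0.653, 0.756 and 0.819 FPKM in Roma-CK and 22.3, 21.6 and 18.9 FPKM in M-81E-CK (log2 difference -3.65 ± 0.103, adjusted p = 0.000121) and SORBI_3004G102200 at 4.82, 5.74 and 3.66 FPKM in Roma-CK and 29.2, 19.9 and 19.3 FPKM in M-81E-CK (log2 difference -2.04 ± 0.22, adjusted p = 0.00241). The most abundant member, SORBI_3004G288700, was at 129, 201 and 195 FPKM in Roma-CK and 263, 314 and 223 FPKM in M-81E-CK and did not pass (log2 difference -0.62 ± 0.23, adjusted p = 0.11).

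Trehalose genes leaned towards M-81E-CK. In trehalose metabolism, which yields a sugar and a sugar phosphate signal, 2 of 24 loci tested were called higher in Roma-CK (8.33%) and 5 higher in M-81E-CK (20.8%), beside 13.1% and 7.24% of all loci. After rescaling 1 and 8 were called (4.17% and 33.3%), beside 8.8% and 8.98% of all loci. The median log2 difference of the list was -0.17 as deposited and -0.44 after rescaling, below that of all loci in both. SORBI_3007G124200, a trehalose phosphatase gene, was at 10.1, 11.8 and 9.71 FPKM in Roma-CK and 31.4, 25.99 and 36.2 FPKM in M-81E-CK (log2 difference -1.47 ± 0.15, adjusted p = 0.00209) and SORBI_3002G188500, a trehalose phosphate synthase gene, at 4.71, 5.87 and 7.68 FPKM in Roma-CK and 15.2, 13.9 and 14.05 FPKM in M-81E-CK (log2 difference -1.14 ± 0.17, adjusted p = 0.00685). The most abundant synthase gene, SORBI_3004G325900, was at 237, 301 and 379 FPKM in Roma-CK and 573, 556 and 538 FPKM in M-81E-CK, just under the 2-fold limit as deposited (log2 difference -0.89 ± 0.21, adjusted p = 0.0305) and called after rescaling, at -1.199 (adjusted p = 0.0236), or without Roma-CK3 (log2 ratio of means -1.05). In sucrose and sugar transport, 12 of 79 loci tested were called higher in Roma-CK (15.2%) and 9 higher in M-81E-CK (11.4%), again beside 13.1% and 7.24% of all loci, and after rescaling 6 and 10. The sugar transporter genes SORBI_3005G123500 and SORBI_3001G373600 were at 36.9, 33.4 and 29.7 FPKM in Roma-CK and 4.18, 6.67 and 7.34 FPKM in M-81E-CK (log2 difference 2.31 ± 0.21, adjusted p = 0.00142) and at 5.68, 3.44 and 9.41 FPKM in Roma-CK and 0, 0 and 0.0554 FPKM in M-81E-CK (log2 difference 2.73 ± 0.32, adjusted p = 0.0033), while SORBI_3004G136600, of the same annotation, was at 21.3, 19.7 and 22.6 FPKM in Roma-CK and 50.5, 57.6 and 76.6 FPKM in M-81E-CK (log2 difference -1.47 ± 0.17, adjusted p = 0.00315). The most abundant sucrose synthase gene, SORBI_3010G072300, was at 286, 299 and 342 FPKM in Roma-CK and 243, 235 and 229.9 FPKM in M-81E-CK and did not pass (log2 difference 0.39 ± 0.13, adjusted p = 0.0824).

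The lists named for salt, abscisic acid and water deprivation were called no more often than loci at large in either direction as deposited. In the response to salt stress, 35 of 308 loci tested were called higher in Roma-CK (11.4%) and 19 higher in M-81E-CK (6.17%), and after rescaling 13 and 28. In abscisic acid responses, 53 of 426 loci tested were called higher in Roma-CK (12.4%) and 26 higher in M-81E-CK (6.103%), and after rescaling 24 and 41, and in responses to water deprivation 29 of 297 loci tested were called higher in Roma-CK (9.76%) and 12 higher in M-81E-CK (4.04%), and after rescaling 12 and 17. The transcription factor gene SORBI_3004G219800, annotated with the response to salt, was at 95.1, 92.02 and 82.3 FPKM in Roma-CK and 22.3, 19.6 and 23.4 FPKM in M-81E-CK (log2 difference 1.997 ± 0.11, adjusted p = 0.00055). SORBI_3006G097500, read with SORBI_3006G097700, carries the zeaxanthin epoxidase of abscisic acid synthesis and was at 54.6, 65.7 and 69.4 FPKM in Roma-CK and 15.5, 15.3 and 20.6 FPKM in M-81E-CK (log2 difference 1.83 ± 0.16, adjusted p = 0.00127). SORBI_3002G423600, which makes galactinol, the donor for raffinose sugars, was at 0.754, 0.523 and 1.45 FPKM in Roma-CK and 11.8, 11.3 and 10.8 FPKM in M-81E-CK (log2 difference -2.72 ± 0.19, adjusted p = 0.00081). In the proline and glycine betaine list, 2 of 14 loci tested were called higher in Roma-CK (14.3%) and 2 higher in M-81E-CK (14.3%), beside 13.1% and 7.24% of all loci. After rescaling 0 and 2 were called, and the members higher in M-81E-CK are not named here. The proline synthesis gene SORBI_3003G356000 was at 11.4, 9.59 and 8.82 FPKM in Roma-CK and 3.36, 4.18 and 5.35 FPKM in M-81E-CK (log2 difference 1.06 ± 0.17, adjusted p = 0.01), and was not called after rescaling, at 0.79 (adjusted p = 0.0127). The proline dehydrogenase gene SORBI_3001G304700 was at 77.8, 94.4 and 114 FPKM in Roma-CK and 98.02, 95.9 and 108 FPKM in M-81E-CK and did not pass (log2 difference -0.09 ± 0.16, adjusted p = 0.694). SORBI_3004G286600, the most abundant locus of the abscisic acid list, annotated with cold acclimation, was at 664, 653 and 706 FPKM in Roma-CK and 677, 591 and 584 FPKM in M-81E-CK and did not pass (log2 difference 0.13 ± 0.17, adjusted p = 0.602).

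In the jasmonate list, 11 of 149 loci tested were called higher in Roma-CK (7.38%) and 20 higher in M-81E-CK (13.4%), beside 13.1% and 7.24% of all loci, and after rescaling 7 and 28. Its members lower in Roma included 4 of the clock genes above, SORBI_3007G047400, SORBI_3010G275700, SORBI_3004G279300 and SORBI_3003G064200. In heat response and chaperones, 21 of 316 loci tested were called higher in Roma-CK (6.65%) and 26 higher in M-81E-CK (8.23%), and after rescaling 8 and 33. Beside the HSP70-type gene above, SORBI_3001G129000, a chaperone gene with a plastid term, was at 9.42, 7.51 and 11.2 FPKM in Roma-CK and 44.5, 32.7 and 40.3 FPKM in M-81E-CK (log2 difference -1.96 ± 0.18, adjusted p = 0.00158) and SORBI_3008G156500, an HSP70-binding protein gene, at 2.27, 2.35 and 1.59 FPKM in Roma-CK and 0.198, 0.135 and 0.181 FPKM in M-81E-CK (log2 difference 1.38 ± 0.14, adjusted p = 0.00216).

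**Figure D5:**
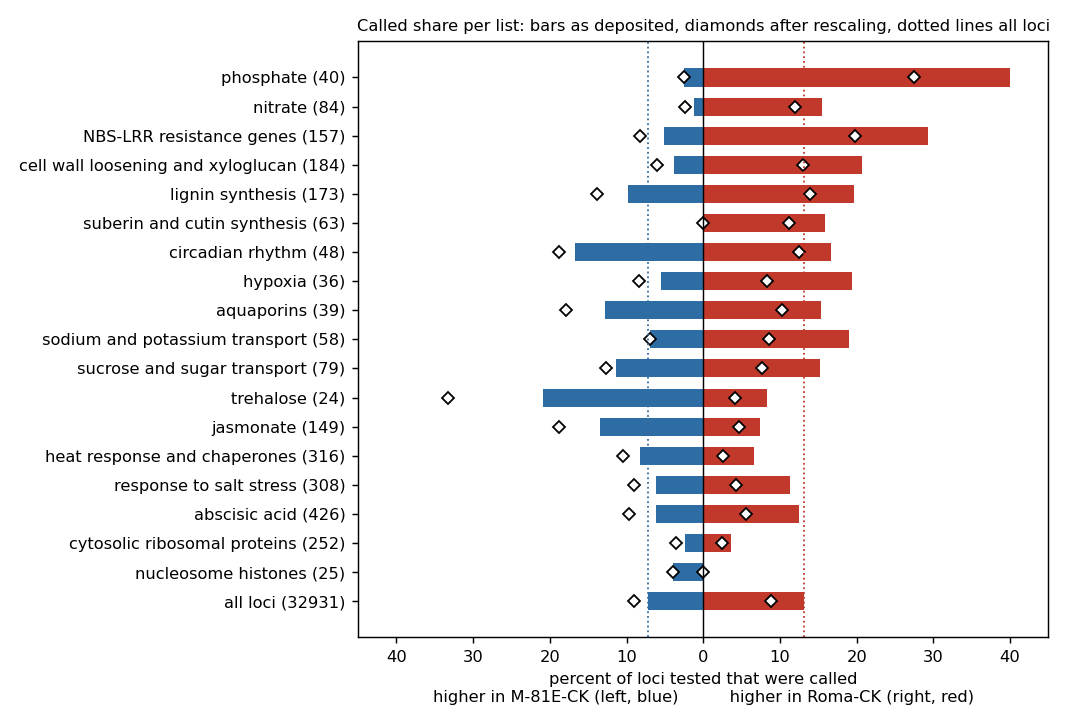
For each of 18 gene lists and for all loci, bars give the percent of loci tested that were called higher in Roma-CK (red, right) or in M-81E-CK (blue, left) with FPKM as deposited, and diamonds give the same after rescaling; the number of loci tested is in brackets and dotted lines mark all loci. The phosphate list reaches furthest to the right and the trehalose list furthest to the left, and for all loci rescaling moves the right end from 13.1% to 8.8%.

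Ribosomal protein and histone genes were called less often than loci at large. Of 252 cytosolic ribosomal protein loci, 9 were called higher in Roma-CK (3.57%) and 6 higher in M-81E-CK (2.38%), and after rescaling 6 and 9. Of 25 histone loci, 0 and 1 were called, the same counts as after rescaling, and the most abundant, SORBI_3006G186700, was at 376, 439 and 498 FPKM in Roma-CK and 510.5, 455 and 619 FPKM in M-81E-CK (log2 difference -0.27 ± 0.202, adjusted p = 0.381). The histone list did not include SORBI_3003G200501, described above, which is annotated with nucleosome assembly and was called higher in Roma-CK. The histone counts therefore do not cover every nucleosome-related locus. An exception was the ribosomal protein gene SORBI_3001G383000, at 1.79, 2.39 and 1.85 FPKM in Roma-CK and 13.7, 15.5 and 10.3 FPKM in M-81E-CK (log2 difference -2.22 ± 0.17, adjusted p = 0.000989), which in salt turned over to 14.4, 25.1 and 40.2 FPKM in Roma-salt and 7.15, 7.35 and 9.03 FPKM in M-81E-salt and was called in the opposite direction there. Transcription factors, with 122 and 67 of 1127 called as deposited and 69 and 106 after rescaling, were near all loci.

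Assembled loci without a gene name differed far more often than named genes. Of 3907 such loci, 1858 (47.6%) were called, 978 higher in Roma-CK and 880 in M-81E-CK, against 4851 of 29024 named loci (16.7%). After rescaling the shares were 46.4% and 13.9%. Of the unnamed loci called in CK, 83.9% were called in the same direction in salt, and of the named loci 51.2%. Unnamed loci were assembled from the reads of this series, so a locus could enter through the line in which it is high. The unnamed and named shares are therefore not a like comparison, and how far this matters was not tested. Loci named by a single gene number were called at 14.8% on chromosome 10 to 20.8% on chromosome 5, with chromosome 8 at 19.8%.

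A network of 5 long non-coding RNAs and 14 protein-coding genes, which was chosen in the study for the response to salt in these plants, is no independent set. In CK, 3 of 19 loci tested were called higher in Roma-CK (15.8%) and 1 higher in M-81E-CK (5.26%), and after rescaling 1 and 3. The non-coding RNA MSTRG.26929 was at 0.104, 0.0889 and 0.0139 FPKM in Roma-CK and 1.35, 1.11 and 0.533 FPKM in M-81E-CK (log2 difference -0.88 ± 0.17, adjusted p = 0.0166), and it was again lower in Roma in salt. Its call was lost without M-81E-CK2 (adjusted p = 0.0573) or Roma-CK2 (at 0.0508). SORBI_3002G237000, a wall-anchored protein gene of root development, was at 3.299, 3.65 and 2.26 FPKM in Roma-CK and 0.995, 1.11 and 1.26 FPKM in M-81E-CK (log2 difference 0.93 ± 0.17, adjusted p = 0.0145), and its call was lost without M-81E-CK1 (adjusted p = 0.0557) or M-81E-CK2 (at 0.0529). The peptide transporter gene SORBI_3001G223100 was at 9.07, 8.64 and 24.2 FPKM in Roma-CK and 2.97, 3.49 and 3.14 FPKM in M-81E-CK (log2 difference 1.68 ± 0.39, adjusted p = 0.0282), which did not hold after rescaling, at 1.42 (adjusted p = 0.062), nor without M-81E-CK1 (adjusted p = 0.0892), M-81E-CK2 (at 0.0785) or M-81E-CK3 (at 0.0762). The transcription factor gene SORBI_3004G302400 was at 0.335, 0.2604 and 0.301 FPKM in Roma-CK and 0.117, 0.113 and 0.151 FPKM in M-81E-CK (log2 difference 0.205 ± 0.04, adjusted p = 0.0183), likewise not after rescaling, at 0.15 (adjusted p = 0.0341), nor without M-81E-CK1 (adjusted p = 0.0701) or M-81E-CK2 (at 0.0689). SORBI_3004G116300 and SORBI_3010G218400 with SORBI_3010G218500, under the 2-fold limit as deposited at 3.93, 3.11 and 3.08 FPKM in Roma-CK and 6.28, 6.24 and 5.42 FPKM in M-81E-CK and at 30.1, 22.9 and 22.4 FPKM in Roma-CK and 37.6, 53.1 and 38.4 FPKM in M-81E-CK, were called lower in Roma after rescaling, at -0.93 (adjusted p = 0.00391) and at -1.05 (adjusted p = 0.00982). The other 4 non-coding RNAs did not pass in CK. Of these, MSTRG.14798 carries the gene name SORBI_3004G068800, and the study classed that RNA as lying within an intron of a reference gene. How far its values belong to the named gene was not tested. MSTRG.13472 was at 1.13, 0.954 and 1.34 FPKM in Roma-CK and 0.736, 0.633 and 0.576 FPKM in M-81E-CK, MSTRG.11310 at 0.735, 0.986 and 0.722 FPKM in Roma-CK and 0.498, 0.443 and 0.571 FPKM in M-81E-CK, MSTRG.2846 at 0.815, 0 and 0 FPKM in Roma-CK and 0.00889, 0 and 0.0577 FPKM in M-81E-CK and MSTRG.14798 at 1.07, 0.206 and 0.387 FPKM in Roma-CK and 0, 0 and 0 FPKM in M-81E-CK, the last called without Roma-CK1 (adjusted p = 0.0231) or Roma-CK2 (at 0.0489). Among the coding genes, SORBI_3009G042700 was at 16.4, 14.02 and 11.99 FPKM in Roma-CK and 8.63, 6.76 and 11.04 FPKM in M-81E-CK, SORBI_3002G302000 at 2.46, 3.27 and 2.13 FPKM in Roma-CK and 1.54, 1.92 and 1.45 FPKM in M-81E-CK, SORBI_3009G208000 at 2.6, 6.24 and 4.28 FPKM in Roma-CK and 7.07, 9.49 and 7.86 FPKM in M-81E-CK and called without Roma-CK2 (log2 ratio of means -1.24), and SORBI_3009G182800 with SORBI_3009G183000 at 112, 78.5 and 109 FPKM in Roma-CK and 168, 162 and 128 FPKM in M-81E-CK. The remaining SORBI_3010G081800, SORBI_3007G046900, SORBI_3006G123500, SORBI_3003G327000 and SORBI_3001G158100 stayed under 1 FPKM in every CK library and did not pass.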

How the data were processed

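Per the labels and methods, cutadapt, Bowtie2, TopHat2 and StringTie were used by the authors, who deposited 1 table of FPKM per locus. Versions and genome build are not given in the sources used here. The labels name a small RNA kit, whereas the methods describe stranded libraries depleted of ribosomal RNA. All 12 FPKM columns matched a sample by name (0 unmatched), and groups came from sample titles. Gene names, GO terms and enzyme numbers are those of the table, in which most descriptions read hypothetical protein.

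Loci above 0 FPKM in at least 1 CK library were tested with limma 3.58.1 in R 4.3.3 (eBayes with a trend) on log2(FPKM + 1), with Benjamini-Hochberg adjustment over all 32931 loci. A call needed an adjusted p under 0.05 and mean FPKM that differed at least 2-fold. The exact permutation test of 3 against 3 libraries cannot go below 0.1 and was not used. The study's own thresholds and the linear model of Ballgown were run as alternatives, with another pseudocount (0.1), a filter at 1 FPKM, rescaled libraries, 1 prior variance, no moderation, all 12 libraries in 1 fit, a replicate block, summed rows of 1 gene name and each library left out. The fits were tested on simulated data. Other steps used Python 3.11.15 (pandas 2.3.3, numpy 2.4.6), with figures drawn in matplotlib 3.10.9.

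The loci and the gene lists were chosen with earlier results of these data known. Named loci were the 8 called with the largest difference in each direction among described loci above 0 in all 6 CK libraries, the 4 most abundant described loci in each direction listed at 0 in the other line, the 3 most abundant called loci in each direction, from each list called members with the largest differences (at most 4 in each direction) and its most abundant member, and every network member. In lists with many calls a subset of these, chosen after values were seen, is named. Members picked by gene name are said so in the text. No sequences are shown.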

Additional observations from a re-analysis of the deposited data

Results flagged for a closer look

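At 10 of the 134 named loci the difference between the lines itself differed between CK and salt (limma interaction on log2(FPKM + 1), adjusted over 34352 loci, Roma minus M-81E in salt less the same in CK). Over all loci 1.81% passed. Many named loci were picked by their CK difference, which is part of the interaction, so this is not a like comparison. SORBI_3001G383000, the ribosomal protein gene, changed direction (interaction 3.76, adjusted p = 0.00502). SORBI_3004G102200 (interaction 1.99, adjusted p = 0.00772) and SORBI_3010G087900 (interaction 1.24, adjusted p = 0.00583), both aquaporins, were further apart in CK than in salt. So were the phosphatase gene SORBI_3001G424400 (interaction 1.45, adjusted p = 0.00446), the inositol phosphate synthase gene SORBI_3001G472800 (interaction 1.35, adjusted p = 0.0187), the laccase gene SORBI_3003G352700 (interaction -0.75, adjusted p = 0.0496) and the galactolipid synthase gene SORBI_3007G211900 (interaction -1.27, adjusted p = 0.0194). SORBI_3001G482600, the jasmonate corepressor gene, was further apart in salt (interaction 0.83, adjusted p = 0.0107). The non-coding RNA MSTRG.11310 (interaction -1.11, adjusted p = 0.0267), at 0.358, 0.997 and 0.582 FPKM in Roma-salt and 2.01, 1.83 and 1.91 FPKM in M-81E-salt, and the sucrose synthase gene SORBI_3010G072300 (interaction -0.86, adjusted p = 0.0326), at 195, 188 and 171 FPKM in Roma-salt and 259.7, 241 and 271 FPKM in M-81E-salt, did not pass in CK. Groups held 3 libraries, so no test for a single outlying library was made.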

How the results depend on the processing

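The 5 counts over all loci (calls in total, higher in Roma-CK, higher in M-81E-CK, called in the same direction in salt, and with an interaction) moved by over 1.5 times as follows. With a mean of at least 1 FPKM the first 4 were 3597, 2507, 1090 and 1820. With the linear model of Ballgown they were 142, 93, 49 and 0. With the fold taken from limma all 5 were 3048, 1833, 1215, 1695 and 203. An unadjusted p gave 2293 interactions. With loci above 0 in all 6 CK libraries, an alternative chosen after seeing the data, 1351 loci were higher in M-81E-CK and 2574 were called in the same direction in salt. With 1 library left out, calls higher in Roma-CK were 2599 to 4548 and interactions 172 to 384, while calls in total, at 4624 to 6606, stayed within 1.5 times. With the replicate number as a block, calls were 3838 in total, 2228 higher in Roma-CK, 2418 in the same direction in salt and 126 with an interaction. Deviations of libraries with the same number correlated at -0.077 to -0.011, which shows no sign of pairing. With 3 libraries a line this check cannot exclude it, and how the numbers were assigned is not given in the sources used here. Fewer loci or samples enter the filtered and left-out fits, and for the other settings the cause was not tested.

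Under the other alternatives run (pseudocount 0.1, rescaled libraries, 1 prior variance, no moderation, all 12 libraries in 1 fit, summed rows) these counts stayed within 1.5 times, with no interaction count for the fit of all 12 libraries or for Ballgown. Of the 101 named loci called, 90 lost their call under the linear model of Ballgown, 16 with the block, 9 without moderation and 8 after rescaling, and 14, 12 and 8 without M-81E-CK1, M-81E-CK2 or M-81E-CK3. SORBI_3004G198701 changed sign under the linear model of Ballgown (MSTRG.15914, log2 difference 0.19), and MSTRG.96, not called, was at -5.64 once summed with MSTRG.95, which holds the same gene name. The deposited values carry no read counts, so no interval or detection limit from depth was computed.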

Other observations

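Lists not described above were mostly called no more often than all loci (13.1% higher in Roma-CK and 7.24% in M-81E-CK as deposited). In DNA replication, 9 of 69 loci tested were called higher in Roma-CK (13.04%) and 2 higher in M-81E-CK (2.899%), with a median log2 difference of 0.29 as deposited and 0.14 after rescaling, when 5 and 2 were called. In cell division 16 of 174 loci tested were called higher in Roma-CK (9.195%) and 5 higher in M-81E-CK (2.87%), and after rescaling 6 and 10. In iron and zinc transport, 6 of 49 loci tested were called higher in Roma-CK (12.2%) and 1 higher in M-81E-CK (2.04%), and after rescaling 2 and 3. In sulfate transport and assimilation, 2 of 41 loci tested were called higher in Roma-CK (4.88%) and 4 higher in M-81E-CK (9.76%), and after rescaling 1 and 5. Glutathione transferases, which detoxify by adding glutathione, were at 11 and 13 of 134 as deposited and 5 and 15 after rescaling. Among hormone lists, auxin had 36 and 14 of 296 (16 and 19 after rescaling), ethylene 24 and 22 of 239 (12 and 28), and cytokinin 11 and 5 of 159 (2 and 10), in the same order of lines.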
